A study of Homo sapiens with 17 samples.

Results

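The genes described here encode the ligands of NKG2D. There are 8 of them among the 25548 gene symbols of the deposited table: RAET1L, RAET1G, RAET1E, ULBP1, ULBP2, ULBP3, MICA and MICB, and every symbol looked for was present. They were chosen by 1 measured value, the higher RAET1L level after 24 h of treatment, and the other 7 were added as its relatives. The 24 h responses are therefore described without a test, and the comparisons tested are those among the 6 and 12 h groups. The 24 h libraries add to the estimate of the spread and to the mean level that decides which genes are tested.

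RNA was sequenced from Jurkat, a long-established line grown from a human T cell leukaemia. All groups were the same line in the same medium. ILT3.Fc, a soluble fusion of the outer part of the inhibitory receptor ILT3 with an antibody Fc fragment, was given at 12.5 or 25 µg/ml, and cells with 0 µg/ml served as untreated controls, for 6, 12 or 24 h. Each group had 2 libraries except untreated cells at 12 h, with 1 library. Nothing in the labels says whether duplicates came from separate cultures, so the p-values measure the spread between these libraries, which may be technical. A control with an unrelated Fc protein was not analysed here.

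NKG2D is an activating receptor of natural killer cells and of some T cells. Its ligands are relatives of MHC class I molecules that healthy cells display little and that stressed, infected or transformed cells display more, which marks them for killing. MICA and MICB lie in the MHC region, span the membrane and have an immunoglobulin-like domain next to it. The ULBP and RAET1 genes lie in a cluster elsewhere on the same chromosome and lack that domain. ULBP1, ULBP2, ULBP3 and RAET1L (also called ULBP6) are held by a lipid anchor, while RAET1E (ULBP4) and RAET1G (ULBP5) have forms that span the membrane.

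The stretches before the starts of 4 members are shown because these genes make 2 pairs that the results turn on: the paralogs MICA and MICB, of which only MICA passed a test, and RAET1L with ULBP2, its closest relative in sequence. Each is the 250 bases before the annotated start in RefSeq (GRCh38.p14), on the gene's own strand, and all 8 members matched an entry. The sources used here do not name the build behind the deposited table, and no value below depends on these positions. Capitals mark matches, on either strand, to the GC box (GGGCGG), the CCAAT box (CCAAT), the heat shock element (GAANNTTC or TTCNNGAA), the TATA box (TATAAA), the E-box (CACGTG) and the AP-1 site (TGANTCA). No match overlapped another in the 4 stretches.

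MICA, chr6:31403345-31403594, plus strand: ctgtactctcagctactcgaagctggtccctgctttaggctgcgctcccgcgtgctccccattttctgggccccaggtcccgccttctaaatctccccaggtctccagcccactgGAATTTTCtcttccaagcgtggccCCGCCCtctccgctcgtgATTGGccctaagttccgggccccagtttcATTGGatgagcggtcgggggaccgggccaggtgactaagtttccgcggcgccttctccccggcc
MICB, chr6:31497895-31498144, plus strand: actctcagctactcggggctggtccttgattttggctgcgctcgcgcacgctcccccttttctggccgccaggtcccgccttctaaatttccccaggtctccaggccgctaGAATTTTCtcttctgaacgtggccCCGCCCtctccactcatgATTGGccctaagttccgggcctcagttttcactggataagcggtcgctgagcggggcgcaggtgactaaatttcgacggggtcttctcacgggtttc
RAET1L, chr6:150025533-150025782, minus strand: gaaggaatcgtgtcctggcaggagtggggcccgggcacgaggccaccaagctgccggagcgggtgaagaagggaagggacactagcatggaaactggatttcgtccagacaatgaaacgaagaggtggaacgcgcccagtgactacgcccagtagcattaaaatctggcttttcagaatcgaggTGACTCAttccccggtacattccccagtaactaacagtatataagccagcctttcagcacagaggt
ULBP2, chr6:149941764-149942013, plus strand: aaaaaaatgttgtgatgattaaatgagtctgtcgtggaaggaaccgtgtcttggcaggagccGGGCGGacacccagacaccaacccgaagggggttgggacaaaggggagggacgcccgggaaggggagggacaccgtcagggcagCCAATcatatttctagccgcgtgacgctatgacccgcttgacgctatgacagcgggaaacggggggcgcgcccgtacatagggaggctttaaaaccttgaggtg

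The MICA and MICB stretches were 85.4% identical over 246 aligned bases. Both held a heat shock element, 135 bases before the start in MICA and 139 in MICB, as did RAET1E further away, and such a match stood in 11.7% of the 27305 RefSeq upstream stretches of the same length. Both also held a GC box (42.3% of all stretches) and a CCAAT box (33% of all), with a second CCAAT box in MICA. RAET1L held neither of the last 2 motifs but an AP-1 match 66 bases before its start (6.6% of all stretches), whereas ULBP2 held 1 GC box and 1 CCAAT box. RAET1L and ULBP2 were 69.2% identical over 201 aligned bases. The exact letters TATAAA were in none of the 8 members' stretches (11.1% of all), and the E-box in RAET1E alone (6.49% of all). Variants of the TATA box were not searched. The RAET1L stretch holds the similar letters TATATAA near its end, so it is not said to lack such a box. A match describes these letters only, and binding was not measured.

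**Figure D1:**
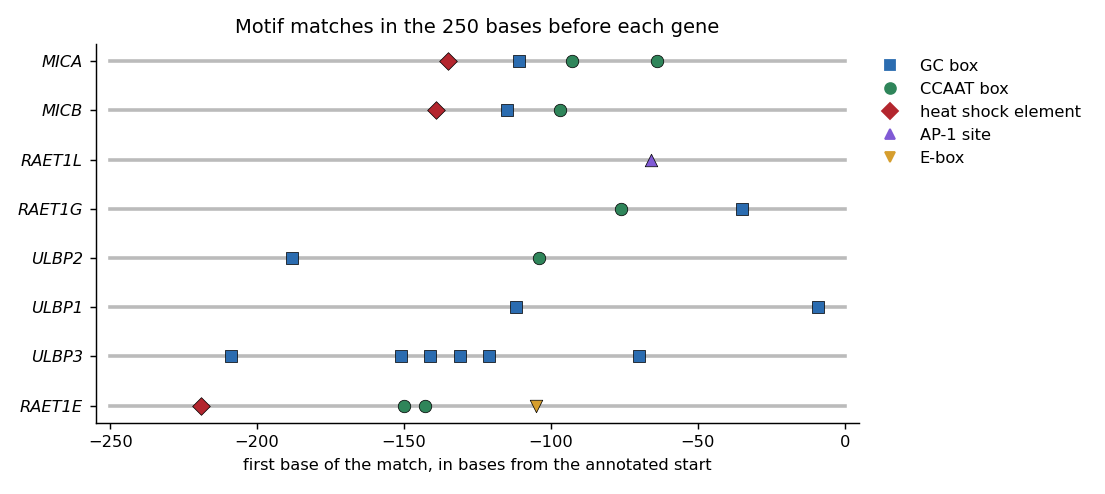
Matches to the motifs in the 250 bases before each of the 8 members, drawn by the distance of the first base of the match from the annotated start (x axis, bases). MICA and MICB share the order of heat shock element, GC box and CCAAT box. RAET1L has a single match to the letters searched, at the AP-1 site.

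The transcripts of the RAET1L group are alike, which bears on what its values can hold. In GENCODE 29, the longest protein-coding transcripts of RAET1L and ULBP2 were 95.4% identical over 1287 aligned positions, those of RAET1L and RAET1G 94.6% over 710, and those of MICA and MICB 91.2% over 1260. Of all runs of 50 bases in the RAET1L transcript, 30.9% also occur unchanged in ULBP2 and 11.4% in RAET1G. At 100 bases the share with ULBP2 was 12.4%. For MICA, 2.04% of runs of 50 bases were shared with MICB and none of 100 bases. The pseudogene RAET1K shared runs of 50 bases with ULBP1 (6.85% of the ULBP1 transcript) and with ULBP3 (12.4% of the ULBP3 transcript). RAET1E shared no such run. Nothing in the sources used here gives the read length or says how fragments that fit more than 1 gene were assigned. The RAET1L, RAET1G, ULBP2 and ULBP3 values are uncertain in that respect.

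Levels are in FPKM, which scales a gene's fragments by its length and by the library's mapped fragments, which allows genes to be compared per length. Over the 17 libraries MICB was the most abundant ligand transcript with a mean level of 19.8 FPKM, followed by ULBP2 at 12.2, ULBP1 at 6.18, MICA at 5.10, RAET1E at 2.88, RAET1L at 1.41 and RAET1G at 0.504. ULBP3 was listed at 0 in all 17 libraries, while the pseudogene RAET1K, which shares sequence with it, ranged from 3.04 to 4.21 FPKM. Neighbours in this order were separated in every library except in 2 cases. ULBP1 stood above MICA in 16 of 17 libraries and RAET1E above RAET1L in 15 of 17. The ranges of RAET1L and RAET1G also overlapped, although RAET1L was the higher in each library. MICB stood at the 80.5th percentile of all symbols and RAET1L at the 54.9th.

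Duplicates agreed least for the lowest members. The higher of 2 duplicates was 1.48 times the lower at the median for RAET1L (8 pairs, from 1.22 to 2.92 times), 1.26 times for RAET1G and 1.22 times for RAET1E. For MICB, ULBP2, ULBP1 and MICA the median was 1.02, 1.16, 1.09 and 1.05 times, so the order did not follow the level throughout: ULBP2, with up to 1.39 times, varied more than the less abundant ULBP1 and MICA. Over all libraries the coefficient of variation ran from 5.07% for MICB to 55.5% for RAET1L. Relative depth, read from the commonest ratio between libraries over 6620 low genes, ran from 0.67 to 1 times that of the deepest library. The absolute depth is unknown, so no counting interval is given.

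**Figure D2:**
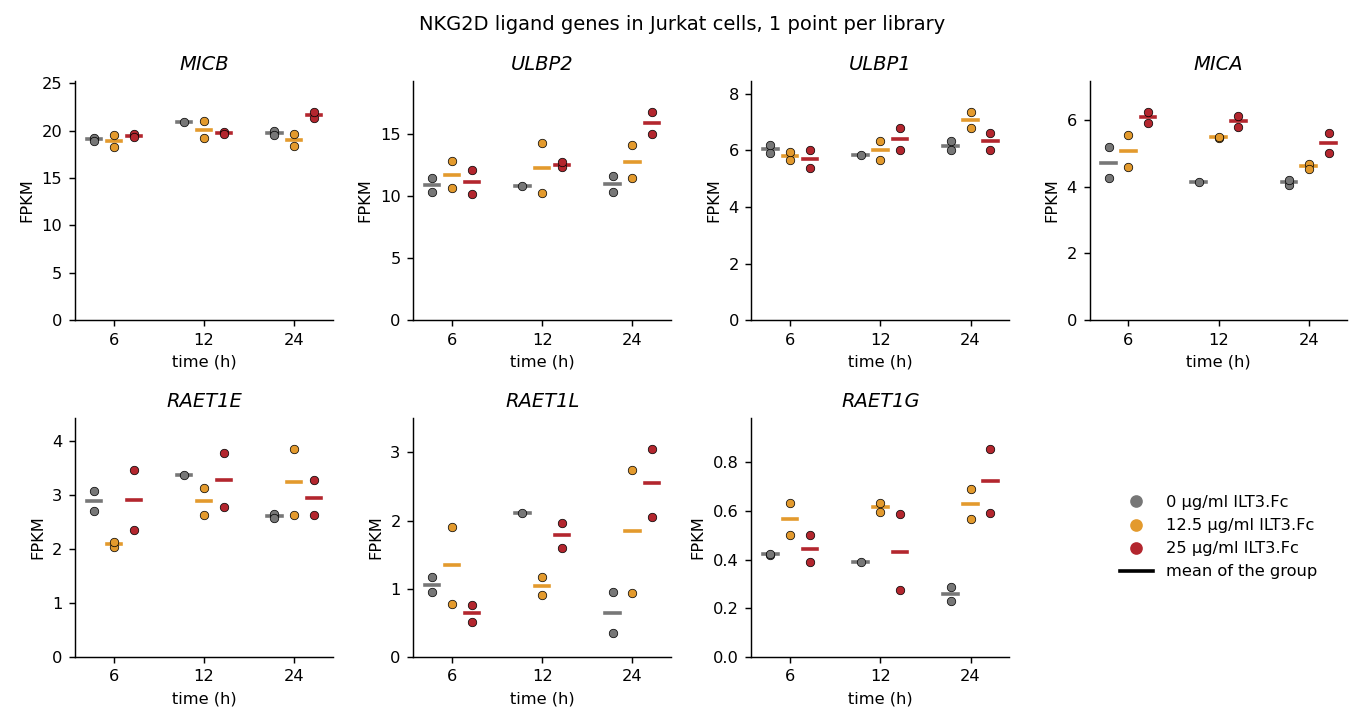
FPKM (y axis, from 0) of the 7 members above 0 in each library, by time (x axis, h) and dose (colour), with the group mean as a bar. At 25 µg/ml MICA lies above its untreated libraries at 6, 12 and 24 h, whereas RAET1L, ULBP2 and RAET1G are all above theirs only at 24 h or, for ULBP2, also at the single untreated level of 12 h.

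RAET1L was followed first, over all doses and times. At 24 h its level was 0.350 and 0.946 FPKM in the untreated duplicates, 2.75 and 0.941 at 12.5 µg/ml, and 3.05 and 2.05 at 25 µg/ml. The 25 µg/ml libraries were both above the untreated ones, while the 12.5 µg/ml duplicates lay on either side of the higher untreated value. The mean at 25 µg/ml was 3.94 times the untreated mean at 24 h (2.55 ± 0.707 against 0.648 ± 0.421 FPKM, SD, n = 2 each), and this is the contrast that chose the gene. In RNA from whole cultures, more cells that express a gene and more RNA per cell cannot be told apart.

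The earlier times did not show the same order. At 6 h RAET1L stood at 0.954 and 1.17 FPKM untreated, 1.91 and 0.770 at 12.5 µg/ml, and 0.766 and 0.518 at 25 µg/ml, so that the highest dose lay below both controls. The library with 1.91, replicate 1 of 12.5 µg/ml at 6 h, also had the highest FPKM sum of all libraries (557389, against a lowest of 504363). At 12 h the single untreated library had 2.11 FPKM, the 12.5 µg/ml libraries 0.910 and 1.16, and the 25 µg/ml libraries 1.60 and 1.97. Every treated library at 12 h was thus below its control.

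The untreated libraries alone spanned 0.350 to 2.11 FPKM for RAET1L (median 0.954, n = 5). Of the 12 treated libraries, 2 lay above that whole range, replicate 1 of each dose at 24 h. Over 6 and 12 h the change of RAET1L at 25 µg/ml was -0.25 on the log2(FPKM + 1) scale (SE 0.244, 95% interval -0.79 to 0.29, limma adjusted p = 0.719). For 12.5 µg/ml it was -0.24 (SE 0.244, interval -0.77 to 0.30, adjusted p = 0.887). Neither dose passed the test at these times, and the intervals are wide enough to hold rises of 0.29 and 0.30. The sum of the RAET1L and ULBP2 values changed by 0.06 at 25 and 0.07 at 12.5 µg/ml (limma adjusted p = 0.888 and 0.939). Most of that sum is ULBP2, which alone changed by 0.113 and 0.125. The sign of the sum therefore says nothing about RAET1L.

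ULBP2, whose product is anchored by lipid like that of RAET1L, was the more abundant of both, at 12.2 FPKM against 1.41 on average. At 24 h it stood at 11.6 and 10.3 FPKM untreated, 14.1 and 11.4 at 12.5 µg/ml, and 16.7 and 15.0 at 25 µg/ml. Both 25 µg/ml libraries exceeded all others at 24 h, which RAET1L did not show, since its 12.5 µg/ml replicate 1 lay between them. The ULBP2 duplicates at 12.5 µg/ml lay on either side of the higher control, again with replicate 1 the higher. The mean at 25 µg/ml was 1.45 times the untreated mean at 24 h. At 6 h the groups overlapped (11.4 and 10.3 untreated, 12.8 and 10.6 at 12.5 µg/ml, 10.1 and 12.1 at 25 µg/ml). At 12 h the control had 10.8 FPKM, 12.5 µg/ml 10.2 and 14.2, and 25 µg/ml 12.3 and 12.7. Over 6 and 12 h the change at 25 µg/ml was 0.11 (SE 0.116, interval -0.14 to 0.37, limma adjusted p = 0.732).

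RAET1L amounted to 3.02% to 19.7% of the ULBP2 level in a library. At 24 h this share was 3.02% and 9.18% untreated, 19.5% and 8.25% at 12.5 µg/ml, and 18.2% and 13.7% at 25 µg/ml. Untreated cells at 12 h had the highest share of all (19.7%), so a high share was not limited to treated libraries. Across the 17 libraries the Pearson correlation of RAET1L with ULBP2 on the log2 scale was 0.66, a description over libraries that share groups, lanes and sequence between the 2 genes.

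**Figure D3:**
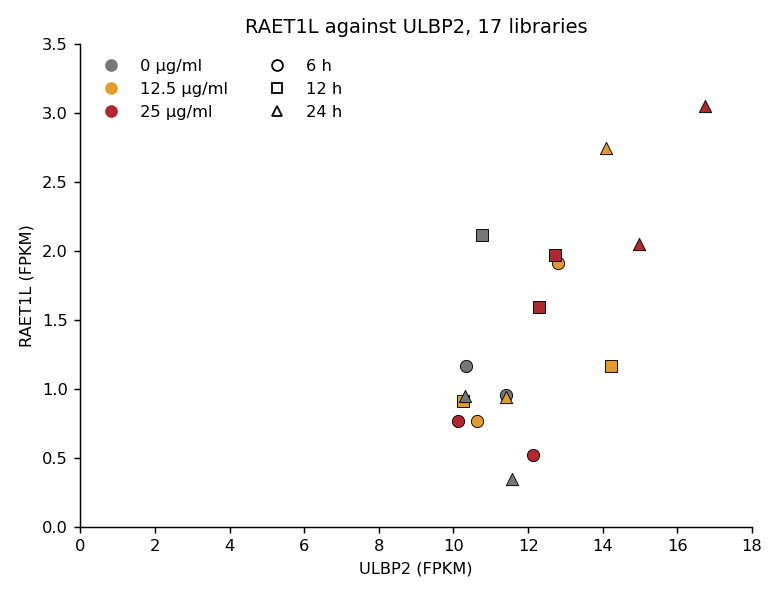
RAET1L (y axis, FPKM) against ULBP2 (x axis, FPKM) in the 17 libraries, with dose as colour and time as symbol. The 25 µg/ml libraries of 24 h lie at the upper right with 12.5 µg/ml replicate 1 of 24 h, and the untreated 12 h library has a high RAET1L level of 2.11 FPKM at an ordinary ULBP2 level of 10.8.

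The genes whose pattern over the 17 libraries was most like that of RAET1L were COQ5 (Pearson correlation 0.85), which encodes a methyltransferase of coenzyme Q synthesis, TARBP2 (0.83), a partner of Dicer, IST1 (0.81), SDF2 (0.81) and GRASP (0.80). They were the highest of 12014 genes compared, whose median correlation was 0.05. The 17 libraries include those of 24 h that chose RAET1L, and its duplicates differed by up to 2.92 times. The 5 genes are thus the extremes of many comparisons. No shared regulation is read from them or from the ranks of the relatives. Among its own relatives ULBP2 ranked 126th of those genes and MICB 673rd (0.53), whereas ULBP1 (0.33), MICA (0.12) and RAET1E (0.07) ranked 2524th, 5069th and 5756th.

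RAET1G was the scarcest member above 0. It stood at 0.229 and 0.287 FPKM untreated at 24 h, 0.690 and 0.567 at 12.5 µg/ml, and 0.593 and 0.855 at 25 µg/ml, so the treated libraries of 24 h all lay above the controls. At 6 h it had 0.420 and 0.423 untreated, 0.634 and 0.500 at 12.5 µg/ml, and 0.501 and 0.390 at 25 µg/ml. At 12 h the values were 0.389 untreated, 0.633 and 0.597 at 12.5 µg/ml, and 0.586 and 0.273 at 25 µg/ml. The 12.5 µg/ml libraries thus exceeded their controls at each time, and those of 25 µg/ml overlapped theirs at 6 and 12 h. Its mean was below the limit of 1 FPKM for testing. Without that limit its change over 6 and 12 h was 0.18 at 12.5 µg/ml (SE 0.081, limma adjusted p = 0.796) and 0.03 at 25 µg/ml (SE 0.081, adjusted p = 0.968).

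MICA, unlike RAET1L, stood higher at 25 µg/ml than in the controls at each time. At 6 h it stood at 4.25 and 5.18 FPKM untreated, 5.54 and 4.6 at 12.5 µg/ml, and 6.23 and 5.92 at 25 µg/ml. At 12 h the single control had 4.13 FPKM, 12.5 µg/ml 5.45 and 5.49, and 25 µg/ml 5.79 and 6.11. In each case the 25 µg/ml libraries lay above their controls, and those of 12.5 µg/ml lay above the control at 12 h and overlapped the controls at 6 h. At 24 h, where no test was made, MICA had 4.05 and 4.21 FPKM untreated, 4.68 and 4.52 at 12.5 µg/ml, and 4.99 and 5.61 at 25 µg/ml, again in the order of dose.

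Over 6 and 12 h MICA rose by 0.37 at 25 µg/ml on the log2(FPKM + 1) scale (SE 0.071, 95% interval 0.22 to 0.53, limma adjusted p = 0.0405), and the 4 treated libraries were all above the controls of their time. It was the only member called of 6 tested, in a comparison where 0.874% of the 12015 genes tested were called (0.416% higher and 0.458% lower). At 12.5 µg/ml its value was 0.21 (SE 0.071, interval 0.05 to 0.37, adjusted p = 0.717), and no member was called there, with 0.0166% of all genes called. The call at 25 µg/ml was close to the threshold. MICA lost it under 17 of 26 alternatives, with values of 0.30 to 0.44 and limma adjusted p from 0.0143 to 0.147. In lane 5 alone, where only the treated groups of 12 h have duplicates to give the spread of every lane 5 test, it was 0.30 (adjusted p = 0.147), and with the replicate block 0.37 (adjusted p = 0.0679).

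Single libraries decided the MICA call. It was lost without replicate 1 of the untreated cells at 6 h (0.32, limma adjusted p = 0.109), without either 25 µg/ml library at 6 h (0.36 and 0.39, adjusted p = 0.109 and 0.111), or without either at 12 h (0.39 and 0.36, adjusted p = 0.103 and 0.126). It was also lost, at an unmoved 0.37, without either 12.5 µg/ml library at 12 h (adjusted p = 0.0703 and 0.0701), either at 24 h (0.0645 and 0.0647) or either untreated library at 24 h (0.0641 and 0.0642). At 12.5 µg/ml MICA was called only without replicate 2 of that dose at 6 h (0.27, adjusted p = 0.0466), where the genes called over the whole table went from 2 to 728.

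Taken at single times, MICA did not pass. At 6 h its value was 0.31 (SE 0.090, limma adjusted p = 0.258), with no member called of 6 and 0.225% of all genes called. At 12 h it was 0.44 (SE 0.111, adjusted p = 0.254), with no member called and 0.0499% of all genes called. The difference between the effects at 12 and 6 h was 0.12 (SE 0.143, interval -0.19 to 0.44, adjusted p = 1), and for this difference 0% of genes were called by limma, with 349 at an unadjusted p under 0.05. Lane 4 holds 1 library of each dose at 6 h and all libraries of 24 h. In lane 4 alone the 6 h value of MICA was 0.46, and in lane 5 alone it was 0.16. Each sets 1 library against 1 and is given without a test.

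MICB encodes the closest relative of MICA and varied least of the members above 0. It stood between 18.2 and 22 FPKM in all 17 libraries. At 6 h it had 19.2 and 19.0 FPKM untreated, 19.5 and 18.2 at 12.5 µg/ml, and 19.6 and 19.3 at 25 µg/ml. At 12 h it had 20.9 untreated, 19.2 and 21.0 at 12.5 µg/ml, and 19.9 and 19.7 at 25 µg/ml. Over 6 and 12 h its change at 25 µg/ml was -0.03 (SE 0.039, interval -0.11 to 0.06, limma adjusted p = 0.839), so a rise as large as the lower bound for MICA lies outside its interval. At 24 h it had 20.0 and 19.6 FPKM untreated, 19.6 and 18.4 at 12.5 µg/ml, and 21.4 and 22 at 25 µg/ml, the last pair being the higher.

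MICA was also set against MICB within each library. MICA amounted to 22.1% and 27.3% of the MICB level in untreated cells at 6 h, to 28.4% and 25.2% at 12.5 µg/ml, and to 31.7% and 30.7% at 25 µg/ml. At 12 h the share was 19.7% in the control, 28.3% and 26.1% at 12.5 µg/ml, and 29.1% and 31.0% at 25 µg/ml. At 24 h it was 20.3% and 21.5% untreated, 23.9% and 24.5% at 12.5 µg/ml, and 23.3% and 25.6% at 25 µg/ml. The shares at 25 µg/ml were above those of the controls at each time, and those at 12.5 µg/ml were above them at 12 and 24 h and overlapped them at 6 h.

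ULBP1, with a lipid-anchored product, stayed between 5.39 and 7.35 FPKM. Over 6 and 12 h its change at 25 µg/ml was 0.02 (SE 0.061, interval -0.11 to 0.15, limma adjusted p = 0.921). Its highest levels were those of 12.5 µg/ml at 24 h (7.35 and 6.81 FPKM, against 6.01 and 6.33 untreated), and the 25 µg/ml duplicates stood at 6.03 and 6.61. The ULBP1 order at 24 h was therefore not that of the dose.

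RAET1E, the gene of ULBP4, ranged from 2.03 to 3.85 FPKM. At 24 h it had 2.64 and 2.57 FPKM untreated, 2.62 and 3.85 at 12.5 µg/ml, and 2.63 and 3.27 at 25 µg/ml, with overlapping groups. At 6 h both 12.5 µg/ml libraries (2.03 and 2.13) lay below the controls (3.06 and 2.70), while 25 µg/ml had 3.45 and 2.35. Over 6 and 12 h its change was -0.25 at 12.5 µg/ml (SE 0.134, interval -0.55 to 0.045, limma adjusted p = 0.822) and -0.02 at 25 µg/ml (SE 0.134, interval -0.32 to 0.27, adjusted p = 0.964).

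**Figure D4:**
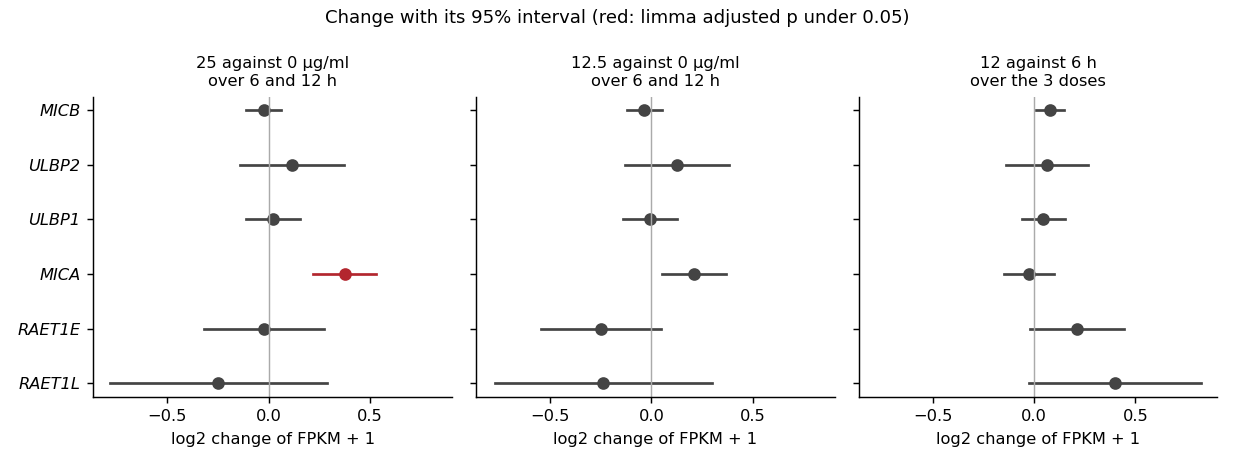
Change of the 6 tested members on the log2(FPKM + 1) scale (x axis) with its 95% interval, in 3 comparisons, with limma calls in red. MICA at 25 µg/ml is the single call, with an interval of 0.22 to 0.53, and RAET1L has the widest intervals.

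Time itself was compared between 12 and 6 h, averaged over the 3 doses. No member was called of 6, while 3.03% of all genes were (1.16% higher and 1.87% lower). RAET1L had the largest value of the members, 0.40 (SE 0.193, interval -0.02 to 0.82, limma adjusted p = 0.27), and RAET1E was at 0.21 (SE 0.106, adjusted p = 0.288). MICB was at 0.08 (SE 0.031, adjusted p = 0.188) and MICA at -0.03 (SE 0.056, adjusted p = 0.834). All 12 h libraries ran in lane 5 and the 6 h duplicates ran in lanes 4 and 5. Within lane 5 the RAET1L value was 0.53 (limma adjusted p = 0.14).

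The summed level of the 7 ligands above 0 was 44.8 and 44.2 FPKM in untreated cells at 24 h, 51.8 and 46.5 at 12.5 µg/ml, and 55.4 and 55.3 at 25 µg/ml. At 6 h the sums were 45.2 and 45.0 untreated, 48.1 and 42.8 at 12.5 µg/ml, and 46.1 and 46.6 at 25 µg/ml. At 12 h they were 47.5 untreated, 45.5 and 51.3 at 12.5 µg/ml, and 50.0 and 50.3 at 25 µg/ml. MICB and ULBP2 made up most of each sum. The sums at 25 µg/ml lay above the controls at each time, by little at 6 h, and those at 12.5 µg/ml lay on both sides of the controls at 6 and 12 h.

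Other genes of the pathway were taken from lists by function. Of the receptor side, HCST (DAP10), the adaptor of NKG2D, was at 22.8 FPKM on average and the only 1 of 6 with a mean of at least 1, with a change of 0.04 at 25 µg/ml over 6 and 12 h (SE 0.089, limma adjusted p = 0.887). KLRK1, which encodes NKG2D itself, ranged from 0 to 0.318 FPKM. None of the 5 tested genes of ligand shedding, 8 of lipid anchor attachment, 19 regulators of DNA damage and stress, 9 other ligands of natural killer cells or 10 genes of MHC class I presentation was called at 25 µg/ml over 6 and 12 h. Their median changes were 0.02, 0.01, -0.01, -0.04 and -0.05, beside 0.01 for all genes tested. Only 0.874% of all genes tested were called in this comparison, so nothing is read from the lack of calls in lists this short. HSF1, the heat shock factor, ranged from 63.0 to 88.1 FPKM and the sheddase gene ADAM10 from 51.3 to 63.0 FPKM.

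Between 12 and 6 h, 1 of the 19 DNA damage and stress regulators was lower and none higher: E2F1, a cell cycle transcription factor, fell by 0.16 (SE 0.029, limma adjusted p = 0.0189). Of the 10 tested MHC class I genes HLA-B fell by 0.20 (SE 0.048, adjusted p = 0.048) and 9 did not pass. Over all genes tested 3.03% were called in this comparison and 1.87% were lower, so 1 of 19 and 1 of 10 are counts of single genes and nothing is read from them about the lists. The other lists had no call in that comparison. Both calls were lost in lane 5 alone, at -0.14 for E2F1 (limma adjusted p = 0.166) and -0.22 for HLA-B (adjusted p = 0.16). E2F1 kept its call in 18 of 26 alternatives and HLA-B in 8 of 26, and leaving out single libraries ended the call in 5 of 16 cases for E2F1 and 11 of 16 for HLA-B.

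Lineage markers were also looked at, which cannot identify the line itself. All 10 T lineage markers were expressed, with a summed level of 1711 to 1955 FPKM. The 6 natural killer markers summed to 3.87 to 7.63 FPKM, nearly all from NKG7, and the 5 myeloid markers to 0.278 to 0.607 FPKM. The 4 B cell markers summed to 33.6 to 48.6 FPKM, nearly all from CD79A. The 4 epithelial markers summed to 0.016 to 0.116 FPKM, with EPCAM and CDH1 listed at 0 in every library and KRT8 and KRT18 above 0 in some. The erythroid markers summed to 0.0655 to 1.72 FPKM, with HBB listed at 0 in every library and HBA1 at 0.906 FPKM on average. None of the 10 T lineage markers, NKG7 or CD79A was called at 25 µg/ml over 6 and 12 h. Over all genes tested the share called there was 0.874%.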

How the data were processed

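RNA from 17 Jurkat libraries was measured by sequencing of polyadenylated RNA. The authors deposited 1 table of FPKM values with a column per library, and the aligner was TopHat2 2.1.0, per the submitters' processing notes. How FPKM were computed, on which build and annotation, is not given in the sources used here. The table had 25593 lines for 25548 symbols; where a symbol came more than once, its line of highest mean entered. Sums of FPKM ran from 504363 to 557389 per library, and 11842 to 12016 genes reached 1 FPKM. FPKM keep no counts, so no count test was run.

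The 12015 genes with a mean of at least 1 FPKM were tested on log2(FPKM + 1) with limma 3.58.1 in R 4.3.3, with 1 mean per group of dose and time, all 17 libraries in 1 fit (8 residual and 3 prior degrees of freedom), a variance trend, two-sided tests and Benjamini-Hochberg adjustment over all genes. A change on this scale understates that of low genes. Calls are genes with an adjusted p under 0.05. The single untreated 12 h library was assumed to vary like the other groups. The effect over 6 and 12 h is the mean of the effects at both times.

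The members and lists were chosen with earlier results of these data known. All members are named, from lists the genes called, and for RAET1L the 5 genes of highest correlation. HCST, KLRK1, HSF1, ADAM10 and single lineage markers are named as well, without a call. Sequences came from RefSeq (GRCh38.p14) and GENCODE 29, aligned with Biopython 1.88. Alternatives changed the pseudocount, filter, scaling, variance trend, lane, replicate block or libraries. Relatives were judged by transcript, as no protein table was used here. The fit was tested on simulated data with independent noise for each library, so that test does not cover effects of lane or shared culture.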

Additional observations from a re-analysis of the deposited data

How the results depend on the processing

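The MICA call at 25 µg/ml over 6 and 12 h was the 1 call among members, and the number of members called went to 0 with no filter, quantile normalization, lane as a covariate, lane 5 alone, without the 24 h libraries and with the replicate block; it ranged from 0 to 1 when single libraries were left out. MICA then had limma adjusted p of 0.0644, 0.0521, 0.0509, 0.147, 0.105 and 0.0679 in that order, and the cause was not tested. At 12.5 µg/ml the number ranged from 0 to 1 on leaving out single libraries. The other 4 comparisons had 0 members called under every alternative run. Deviations of same-numbered libraries correlated at -0.18 to 0.13 over 28 pairs of groups, 2 of them over 0.1. Pairing by duplicate number was thus not seen, but such low values cannot exclude a shared culture or day. Of the calls named here by gene, the replicate block ended only that of HLA-B (-0.21, limma adjusted p = 0.0627) besides that of MICA. Over all genes, the number called at 25 µg/ml over 6 and 12 h went from 105 to 89 with that block.

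Signs that turned belonged to changes that had passed no test. The summed RAET1L and ULBP2 value changed by 0.059 at 25 and 0.068 at 12.5 µg/ml over 6 and 12 h. At 25 µg/ml at 12 h it changed by 0.14. Most of that sum is ULBP2, so these signs do not bear on RAET1L. At 6 h and 25 µg/ml RAET1E was 0.0038 with quantile normalization and 0.13 in lane 4 alone, where ULBP2 was -0.16. In lane 5 alone the difference between 12 and 6 h was 0.10 for RAET1E and -0.012 for ULBP2. Leaving out single libraries gave, at 25 µg/ml over both times, -0.125 to 0.081 for RAET1E and -0.018 to 0.058 for ULBP1, and at 12.5 µg/ml -0.042 to 0.027 for ULBP1. At 25 µg/ml it gave -0.21 to 0.20 for RAET1E and -0.092 to 0.15 for ULBP2 at 6 h, and -0.21 to 0.13 for RAET1E at 12 h. For 12 against 6 h it gave -0.065 to 0.013 for MICA and -0.0072 to 0.14 for ULBP2, and for the difference between the times -0.24 to 0.17 for RAET1E.

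Over all genes the number called by limma moved widely: from 105 to between 8 (lane 5 alone) and 443 (without 12.5 µg/ml replicate 1 at 6 h) at 25 µg/ml over both times, from 27 to between 1 and 93 at 6 h, from 6 to between 4 and 42 at 12 h, from 364 to between 18 (lane 5 alone) and 2411 (without 12.5 µg/ml replicate 2 at 6 h) for 12 against 6 h, and from 0 to at most 18 (no filter) for the difference between the times. At 12.5 µg/ml 2 became at most 728. The alternatives for E2F1 and HLA-B were chosen after seeing the data. Leaving out the single untreated 12 h library gave no value for comparisons that use 12 h, and a filter on a mean of 5 FPKM left RAET1L and RAET1E untested. RAET1G and ULBP3 lie where these libraries resolve little, and the depth in fragments is unknown.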
